A study of Mus musculus with 6 samples.

Results

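The epicardium is the mesothelial sheet that covers the heart. It arises from the proepicardium, and some of its cells undergo an epithelial to mesenchymal transition and enter the wall, where they give rise to fibroblasts and to smooth muscle of the coronary vessels. It also sends retinoic acid and growth factors to the myocardium beneath it. The 10 genes described here are markers of this layer, taken as a list of symbols and matched to Ensembl IDs with the GENCODE M21 annotation, each to 1 ID, out of 54532 gene IDs in the deposited table. They are the transcription factors Wt1, Tcf21, Tbx18 and Bnc1, the retinoic acid synthesis enzyme Aldh1a2, the surface genes Upk3b, Upk1b, Msln and Lrrn4, and the secreted guidance factor Sema3d. The rule that picks them is by name and uses no measured value, although the list was drawn up with earlier results of these data known.

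RNA sequencing was done on heart ventricles of mouse embryos at E12.5. One group holds 3 control libraries (genotype CTL in the labels) and the other 3 libraries from LSD1 conditional knockout embryos (genotype LSD1-KO). LSD1, encoded by Kdm1a, is a histone demethylase. Strain, the Cre driver, the control alleles and the cells in which the gene was deleted are not given in the labels, so whether epicardial cells lost Kdm1a cannot be told from them. The labels also do not say whether the libraries of a group come from separate embryos, so a p-value here reflects the variation among these 6 libraries, part of which may be technical. Values are FPKM, fragments scaled by gene length and library size, so levels can be compared between genes.

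Kdm1a was at 30, 29.7 and 22.8 FPKM in the controls and at 10.7, 11.8 and 11 FPKM in the knockouts, with no overlap between the groups (ratio of means 0.405). Recovered whole reads numbered 17896745 to 20073984 in a library. Knockout 3 stands apart by its sex-linked RNA, with 0 FPKM of the Y-linked gene Ddx3y against 13 to 14.3 in the other 5 libraries, and 12.1 FPKM of Xist against 1.11 in knockout 1 and 0.0125 at most in the other 4. Knockout 1 had 5.24 FPKM of the neural crest factor Sox10, against at most 0.611 in the others. Over the 14149 genes whose mean reached 0.5 FPKM, limma on log2(FPKM + 1) called 2.37% in either direction (Benjamini-Hochberg adjusted p under 0.05).

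None of the 10 epicardial markers differed between knockout and control by this test. All 10 passed the filter on low values, and 0 rose and 0 fell, where the background is 1.91% called higher and 0.466% called lower. Before adjustment, 0 of the 10 had a limma p-value under 0.05, against 16.1% of the genes tested. In every one of the 10 the range of the control libraries overlapped that of the knockout libraries, while 21.4% of all tested genes had groups that did not overlap. Ratios of the knockout to the control mean lay between 0.945 (Msln) and 1.09 (Lrrn4), and the median log2 change was 0.02, beside -0.01 for all tested genes. The 95% confidence intervals of the log2 changes lay within -0.55 and 0.41, that is, ratios on the FPKM + 1 scale of 0.684 to 1.33. A p that misses the threshold does not show that the levels are alike, so the interval of each gene is given below. In whole ventricles fewer cells of a type and less RNA per cell cannot be told apart.

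Before the values, 2 promoters show how unlike the start regions of these genes are. RefSeq promoter sequences (GRCm38.p6) were matched for 7 of the 10 markers, and the 250 bases upstream of the start were read. The windows of Upk3b, the most abundant marker, and Aldh1a2, the next, hold the fewest and the most CpG dinucleotides of the 7 and are printed for that reason, 5′ to 3′ on the gene's strand with each CpG in capitals. The Upk3b window lies at chr5:136038246-136038495 on the plus strand and the Aldh1a2 window at chr9:71215539-71215788 on the plus strand.
Upk3b: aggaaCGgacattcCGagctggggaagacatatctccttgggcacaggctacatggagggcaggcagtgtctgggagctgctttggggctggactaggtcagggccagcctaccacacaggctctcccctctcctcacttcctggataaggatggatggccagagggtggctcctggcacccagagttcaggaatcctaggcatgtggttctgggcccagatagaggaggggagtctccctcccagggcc
Aldh1a2: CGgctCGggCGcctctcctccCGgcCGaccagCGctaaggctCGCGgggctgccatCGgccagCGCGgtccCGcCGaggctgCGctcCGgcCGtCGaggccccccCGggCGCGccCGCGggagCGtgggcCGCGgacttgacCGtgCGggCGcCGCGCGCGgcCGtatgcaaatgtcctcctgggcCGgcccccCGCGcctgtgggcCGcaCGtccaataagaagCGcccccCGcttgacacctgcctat

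The Upk3b window holds 2 CpG and the Aldh1a2 window 40, where the median of 32841 RefSeq windows of this length is 6. Of those windows 18.8% hold fewer CpG than that of Upk3b and 98.7% hold fewer than that of Aldh1a2. The Bnc1 window holds 39, Tbx18 15, Lrrn4 and Tcf21 5 each, and Sema3d 4. The letters GGAATG, a core of TEAD factor motifs, were searched on both strands and are found in the windows of Upk3b and Lrrn4, 2 of 7, and in 12.6% of all windows. The letters AGATAA, to which factors such as Gata6 bind, are found in that of Tcf21 alone of the 7 and in 9.99% of all windows. GGGCGG was also searched and is found in that of Bnc1 alone of the 7 and in 32.7% of all windows. TATAAA is found in 0 of the 7 and in 12.4% of all windows. A match describes these letters and is not a measured site. None of these 7 genes passed the test between genotypes, so these windows cannot show whether CpG content goes with a change.

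**Figure D1:**
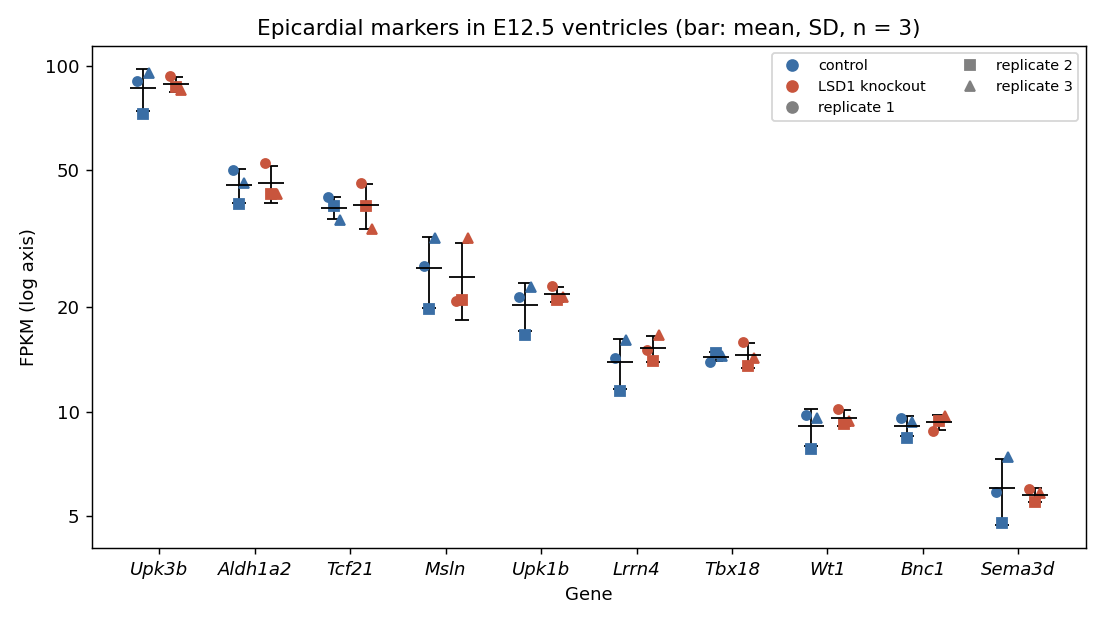
FPKM of the 10 epicardial markers (log axis) in 3 control and 3 LSD1 knockout libraries, ordered by mean level. Points are libraries, shaped by replicate number, and bars give the mean and SD. Knockout and control points overlap for every gene, and control 2 is the lowest point of 8 genes.

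Wt1, a zinc finger factor needed for the epicardium to form and to give rise to mesenchyme, was at 9.79, 7.8 and 9.58 FPKM in controls 1 to 3 and at 10.1, 9.23 and 9.4 in knockouts 1 to 3. Control 2 was the lowest library and the other 5 lay close together, so the groups overlap. The means were 9.05 ± 1.09 and 9.59 ± 0.482 FPKM (SD, n = 3 each), a log2 change of 0.08 (SE 0.09, 95% interval -0.13 to 0.29, limma adjusted p = 0.727). Wt1 lies on chromosome 2 from 105126529 to 105173616 on the plus strand of mm10, and 0% of its exon bases lie under exons of another gene. The antisense gene Wt1os was at 0.841 ± 0.152 FPKM in control and 0.751 ± 0.169 in knockout ventricles (SD, n = 3 each).

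Tcf21, a basic helix-loop-helix factor of epicardial cells that become fibroblasts, was at 41.6, 39.2 and 35.8 FPKM in the controls and 45.7, 39.4 and 33.8 in the knockouts. Knockout 1 was the highest and knockout 3 the lowest of all 6, so the knockout libraries enclosed the controls. Its log2 change was 0.02 (SE 0.11, 95% interval -0.24 to 0.28, limma adjusted p = 0.954). Tbx18, a T-box repressor found in the proepicardium and epicardium, had one of the narrowest spreads. It was at 13.9, 14.8 and 14.5 FPKM in the controls and 15.9, 13.5 and 14.3 in the knockouts, and again knockout libraries were both the highest and the lowest. The log2 change was 0.01 with an interval of -0.16 to 0.19. The antisense gene D030062O11Rik covers 20.6% of the Tbx18 exon bases, and reads of the pair cannot be told apart without strand; it stood at 0.0554 to 0.14 FPKM in controls and 0.184 to 0.355 in knockouts and was too low to be tested.

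Bnc1, a zinc finger factor of mesothelial and other epithelia, was at 9.57, 8.39 and 9.32 FPKM in the controls and 8.79, 9.42 and 9.71 in the knockouts. Its highest library stood 1.16 times above its lowest, the smallest such spread of the 10. Exons of 4833418N17Rik on the other strand cover 2.11% of its exon bases. The log2 change was 0.03 with an interval of -0.14 to 0.20. Aldh1a2, which makes retinoic acid from retinaldehyde, was at 50, 39.9 and 45.7 FPKM in the controls and 52.2, 42.6 and 42.4 in the knockouts. Knockout 1 and control 1 were the highest and control 2 the lowest. The log2 change was 0.02 with an interval of -0.24 to 0.27 (limma adjusted p = 0.96).

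Upk3b and Upk1b encode uroplakins, membrane proteins known from urothelial plaques that mesothelial cells also express. Upk3b was at 90.1, 72.6 and 95.3 FPKM in the controls and 93.1, 86.9 and 85.1 in the knockouts. Upk1b was at 21.4, 16.7 and 22.8 FPKM in the controls and 23.1, 21 and 21.4 in the knockouts. In both genes control 2 was the lowest library and the knockouts lay close together, inside the control range but for Upk1b in knockout 1. The log2 changes were 0.05 (interval -0.20 to 0.29) for Upk3b and 0.11 (interval -0.16 to 0.37) for Upk1b.

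Msln encodes mesothelin, a surface protein anchored by a lipid tail, and was the most variable marker. It was at 26.3, 19.8 and 31.8 FPKM in the controls and 20.9, 21 and 31.7 in the knockouts, with replicate 3 of each group high. Its SD was 23% of the mean in control and 25.2% in knockout, and its interval was the widest of the 10 (log2 change -0.08, SE 0.20, interval -0.55 to 0.39). The fibroblast gene Col1a1 had its highest levels in the same pair of libraries, at 156 FPKM in control 3 and 136 in knockout 3 against 87.7 to 99.9 in the other 4. So did the marker Lrrn4 and the mesothelial genes Gpm6a (16.5 and 17 FPKM against 11 to 15) and Cldn15 (6.66 and 6.91 against 4.12 to 5.51). Other genes of the mesothelial surface did not, and Krt18 and Krt19 were lowest in control 3. The part of other cell types in the Msln values was not tested. Lrrn4, a leucine-rich repeat surface protein, was at 14.3, 11.4 and 16.1 FPKM in the controls and 15, 14 and 16.6 in the knockouts. It had the largest fitted change of the markers, 0.13 (SE 0.12, interval -0.15 to 0.41, limma adjusted p = 0.65), and its groups overlapped. Without control 2 that change was 0.0042, and without control 3 it was 0.23. Sema3d, a secreted class 3 semaphorin, was at 5.86, 4.76 and 7.38 FPKM in the controls and 5.99, 5.47 and 5.81 in the knockouts. Its controls were spread on both sides of the knockouts (log2 change -0.04, interval -0.34 to 0.27).

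**Figure D2:**
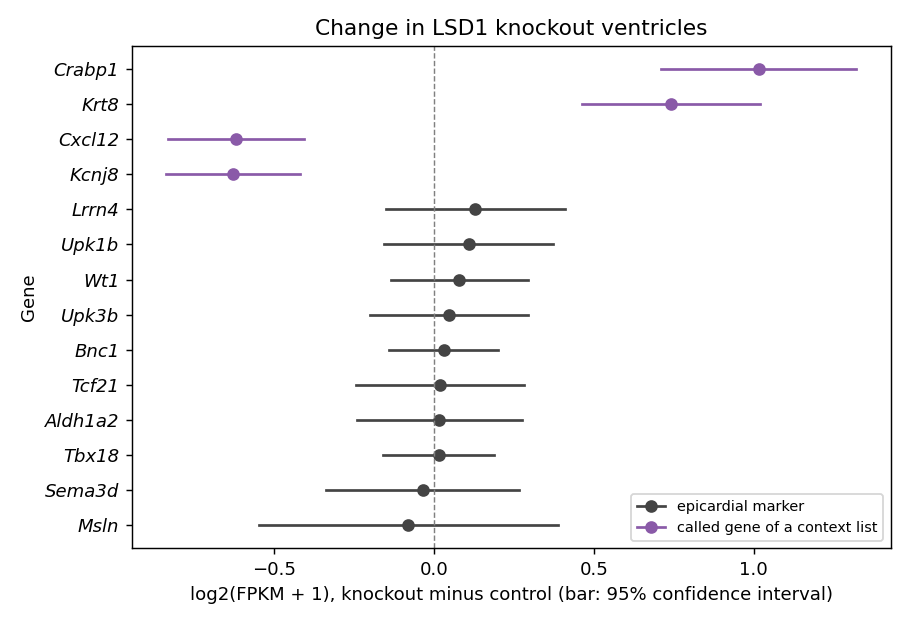
Log2 change between knockout and control (difference of mean log2(FPKM + 1)) with its 95% confidence interval, for the 10 epicardial markers and for the 4 genes called in the lists of related genes and other cell types. Every marker's interval spans 0, with Lrrn4 at 0.13 the highest and Msln at -0.08 the lowest, while those of Crabp1, Krt8, Cxcl12 and Kcnj8 do not reach 0.

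Each marker had between 619 and 6494 recovered reads in a library. By level, Upk3b (mean of the 6 libraries 87.2 FPKM) stood first in every library and Sema3d (5.88 FPKM) last in every library. Aldh1a2 came next after Upk3b in each library, at 45.5 FPKM on average, and Tcf21 after it at 39.2, although the ranges of Aldh1a2 and Tcf21 over the libraries overlapped. Msln (25.2) and Upk1b (21.1) overlapped and exchanged places in 1 of the 6 libraries. Lrrn4 (14.6) and Tbx18 (14.5) did so in 2, and Wt1 (9.32) and Bnc1 (9.2) in 3, so neither of these last pairs can be ordered. Upk3b was above 95.3% of the genes tested and Sema3d above 52.2%.

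For all 10 markers the difference between the group means was smaller than the SD of the 3 control libraries. Control 2 was the lowest of the 6 libraries for 8 of the 10, whereas it was the lowest for 16% of all tested genes. The markers' median deviation from their own means was -0.24 in control 2 on the log2 scale, against -0.03 to 0.11 in the other libraries, and that of all tested genes was 0.01. The summed level of the 10 was 235 FPKM in control 2, 283 and 288 in controls 1 and 3, and 263 to 291 in the knockouts. The exceptions were Tbx18 and Tcf21, which were not low in control 2. Without control 2 the fitted changes of the 10 had a median of -0.02 and 0 were called.

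Ratios between markers within a library were not steadier in general than the levels: the highest library stood 1.09 to 2.05 times above the lowest for the ratios, and 1.16 to 1.60 times for the levels. The ratio of Upk3b to Upk1b lay between 3.98 and 4.36 in the 6 libraries, the narrowest span of the 45 pairs. It was 4.24 ± 0.1 in control and 4.05 ± 0.0835 in knockout ventricles (SD, n = 3 each). Wt1 followed both uroplakins closely, with 0.1 to 0.111 FPKM per FPKM of Upk3b. The widest span was that of Tcf21 to Msln, from 1.07 in knockout 3 to 2.19 in knockout 1, since Tcf21 was lowest in the replicate 3 libraries where Msln was high. Genes of 1 library share its RNA and depth, and these ratios are given as a description.

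**Figure D3:**
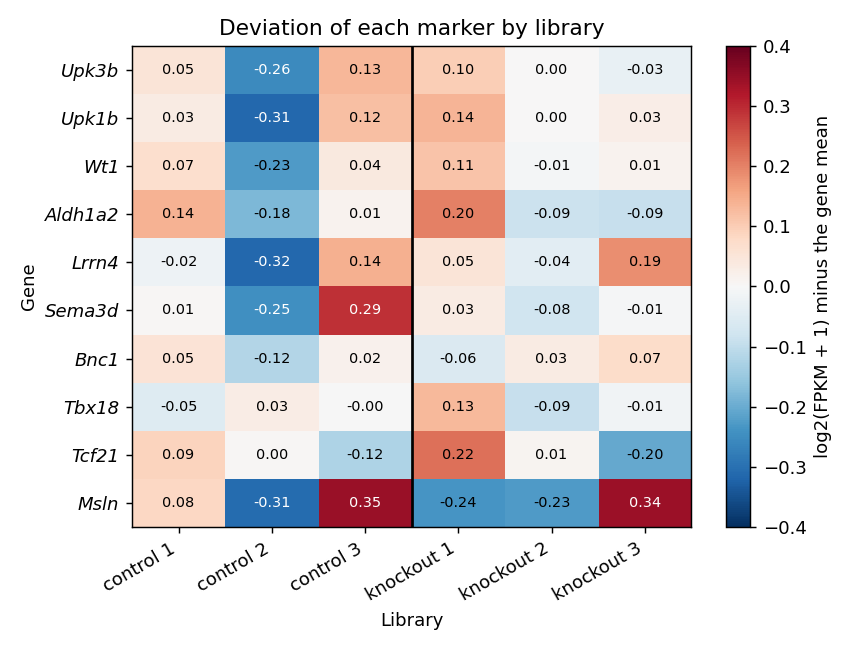
Deviation of each epicardial marker from its own mean over the 6 libraries, in log2(FPKM + 1) units, with control libraries left of the line and knockout libraries right of it. Control 2 is low for 8 of the 10 genes (down to -0.32 for Lrrn4), and Msln is high in control 3 and knockout 3 and low in the other knockouts.

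Outside the 10, the genes whose centred profile came nearest to the markers' mean profile over the 6 libraries were Smim20, Ripk1, Rmi1, Ggcx and E2f5. They lay at a root mean square distance of 0.0227 to 0.0346 log2 units, among 6276 genes that averaged 1 FPKM or more and varied at least as much as that profile. Smim20 was at 29.2, 23.9 and 30.4 FPKM in the controls and 29.3, 26.8 and 29.5 in the knockouts. All 5 were lowest in control 2, which follows from how they were picked, since the mean profile is lowest there (-0.19). Of the markers themselves Wt1 lay nearest to the mean profile, at 0.0386, and Msln farthest, at 0.223.

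Close relatives of the markers were mostly far lower. Of 20 such genes 10 had a mean under 0.5 FPKM and could not be tested, and of the other 10, 0 were called (median log2 change 0.10). Among uroplakins, Upk1a was at 0.0779 to 0.237 FPKM, Upk2 at 0.0517 at most, and Upk3a was listed at 0 in 5 of the 6 libraries. Aldh1a1 was at 2.02 to 5.36 FPKM and Aldh1a3 at 0.204 at most, so Aldh1a2 held the highest level of the 3 retinaldehyde dehydrogenases in each library. Bnc2 stayed at or under 0.304 FPKM, and Tbx22 was listed at 0 throughout. Tcf15, a helix-loop-helix relative of Tcf21 that is also expressed in coronary endothelium, was at 8.57, 11.2 and 8.56 FPKM in the controls and 5.99, 6.47 and 6.46 in the knockouts. Its groups did not overlap but it missed the threshold (log2 change -0.51, SE 0.10, limma adjusted p = 0.0566).

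Other genes of the epicardial and mesothelial surface gave 1 call among 13 tested, Krt8, with 0 lower and a median log2 change of 0.05. Krt8, a keratin of simple epithelia, rose from 14.42, 12.49 and 12.54 FPKM in the controls to 27.4, 20.8 and 20.3 in the knockouts (log2 change 0.74, SE 0.12, limma adjusted p = 0.0241). Every knockout library lay above every control library. Its keratin partners were spread otherwise, with Krt18 at 33.4, 27.5 and 21 FPKM in controls and 34, 29 and 26.6 in knockouts, and Krt19 at 86.5, 57.2 and 49.7 and then 61.6, 57.5 and 56.4. Gpm6a, a membrane glycoprotein found in mesothelium, was at 11 to 16.5 FPKM in controls and 12.6 to 17 in knockouts. Groups also did not overlap for Slc39a8, which was higher in the knockouts, and for Anxa8 and Cdh3, which were lower. These genes missed the threshold (limma adjusted p = 0.0889, 0.125 and 0.143), and 21.4% of all tested genes had groups that did not overlap. Anxa8 was at 1.26 ± 0.368 FPKM in control and 0.533 ± 0.209 in knockout. The Krt8 call was lost without control 2 (limma adjusted p = 0.0865), without control 3 (0.0548) and without knockout 2 (0.0598). It was also lost with the sex score as covariate (0.0687), where the log2 change of Krt8 was 0.82 (SE 0.14). Exons of Gm36026 on the other strand cover 5.16% of the Krt8 exon bases, and whether reads of Krt8 pseudogenes were counted with it was not measured.

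In the retinoic acid pathway, which Aldh1a2 feeds, 1 of 14 tested genes rose and 0 fell (median log2 change -0.03). Crabp1, a cytosolic binding protein for retinoic acid, was at 5.88, 5.61 and 7.69 FPKM in the controls and 14.2, 11.9 and 15.6 in the knockouts. All knockouts were higher than all controls (log2 change 1.02, SE 0.13, limma adjusted p = 0.0107). Crabp1 stayed called when any single library was left out (limma adjusted p up to 0.0446). With the sex score as covariate it was not called (0.0546), at a log2 change of 0.90 (SE 0.14). The receptor gene Rarb, itself a known target of retinoic acid, was at 2.7 to 2.99 FPKM in controls and 2.69 to 3.02 in knockouts. The breakdown enzyme gene Cyp26b1 was at 0.641 to 2.26 and 0.476 to 1.44 FPKM, with the higher levels in replicate 3 of each group. Cyp26a1 stayed at or under 0.367 FPKM and was too low to be tested. Dhrs3 was at 6.39 to 8.57 FPKM in controls and 5.03 to 6.87 in knockouts and did not pass (limma adjusted p = 0.275).

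Among 23 tested ligands and receptors exchanged between epicardium and myocardium, 0 rose and 1 fell (median log2 change 0.00). Cxcl12, a chemokine that epicardial and other cells release and that guides coronary endothelium, was at 25.6, 27 and 21.5 FPKM in the controls and 15.9, 14.8 and 16.4 in the knockouts. It was lower in every knockout than in every control (log2 change -0.62, SE 0.09, limma adjusted p = 0.0165). With a single library left out Cxcl12 was called in 1 fit, that without control 3, and its adjusted p was 0.0559 to 0.0765 in the other 5. It was 0.0675 with the sex score as covariate, where the log2 change of Cxcl12 was -0.66 (SE 0.11). Its receptor gene Cxcr4 was at 2.85, 3.67 and 4.3 FPKM in controls and 2.66, 2.25 and 2.07 in knockouts and did not pass. The growth factor gene Igf2 was at 77.3 to 77.9 FPKM in controls and 71 to 87.7 in knockouts.

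**Figure D4:**
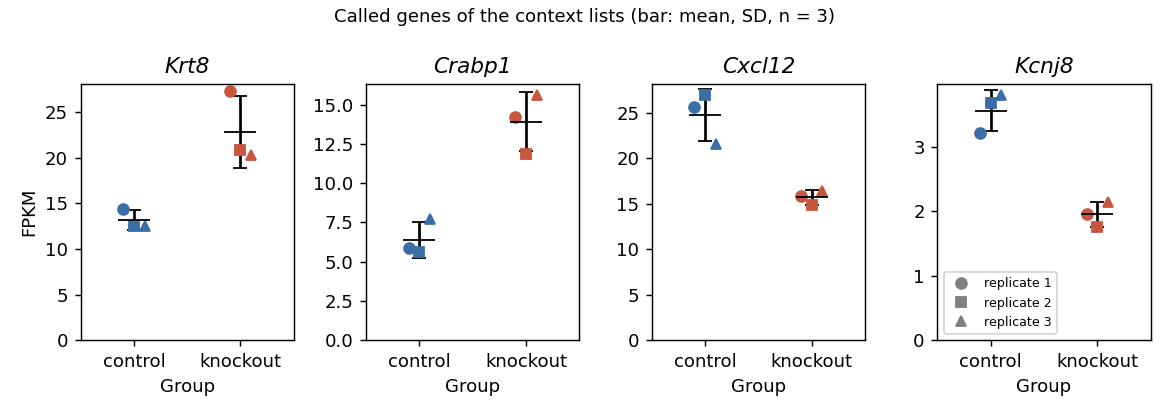
FPKM of the 4 genes called in the lists of related genes and other cell types, in 3 control and 3 LSD1 knockout libraries (points shaped by replicate number, bars mean and SD). Krt8 and Crabp1 are higher, and Cxcl12 and Kcnj8 lower, in all 3 knockouts than in any control.

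The transition and the cells that derive in part from epicardium were also followed. Of 11 tested genes of the epithelial to mesenchymal transition 0 were called (median log2 change -0.02), with the repressor gene Snai1 at 5.88 to 9.01 FPKM in controls and 7.6 to 7.95 in knockouts. Of 12 fibroblast genes 0 were called (median -0.09), and their summed level was 430 to 646 FPKM in controls and 420 to 527 in knockouts. Among smooth muscle and pericyte genes, Myh11 was at 0.0221 to 0.233 FPKM over the 6 libraries and too low to be tested. Tagln was at 1.39 to 1.98 FPKM and Acta2 at 752 to 1264.5. The part of other cell types in these levels was not tested. Of the 10 tested smooth muscle and pericyte genes 0 rose and 1 fell (median 0.07). That gene was Kcnj8, a potassium channel gene of pericytes, at 3.21, 3.68 and 3.8 FPKM in controls and 1.95, 1.76 and 2.15 in knockouts (log2 change -0.63, SE 0.09, limma adjusted p = 0.0147). It was no longer called without control 2 (adjusted p = 0.0618), knockout 1 (0.0574) or knockout 2 (0.0664). Its channel partner gene Abcc9 was at 3.43 to 5.56 and 5.32 to 6.35 FPKM and was called higher without control 2 (adjusted p = 0.0447). Without the filter on low values Krt8, Crabp1, Cxcl12 and Kcnj8 all missed the threshold (limma adjusted p = 0.0534 to 0.0846). For Sema3d, 0 of 10 tested plexin and neuropilin receptor genes were called (median -0.01), with Nrp1 at 8.3 ± 0.968 FPKM in control and 9.75 ± 0.454 in knockout (SD, n = 3 each; limma adjusted p = 0.289). Without control 3, Plxnd1 was called higher (adjusted p = 0.0487).

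Markers of the other cells of the ventricle gave 0 calls in either direction in each list. For 12 cardiomyocyte markers the summed level was 14675 to 18984 FPKM in controls and 15933 to 17475 in knockouts (median log2 change -0.05). For 11 endothelial markers it was 233 to 331 and 293 to 365 FPKM, and all 11 had a fitted change above 0 (median 0.26) with none called; without control 3, Npr3 (adjusted p = 0.0359) and Emcn (0.0367) were called higher. The 9 erythroid genes summed to 8043 to 18005 and 7911 to 16516 FPKM. The 8 immune markers summed to 80.4 to 86.1 and 87 to 103.6 FPKM. The 8 neural crest markers summed to 26.8 to 44.6 and 43.5 to 49 FPKM, most of it from Ednrb at 24.8 to 41.8 and 37 to 43 FPKM. Of the 8, 4 were high enough to be tested, and Ednrb was called higher without control 3 (limma adjusted p = 0.0296). Sox10 was at 0 to 0.611 FPKM outside knockout 1, where it was at 5.24. The endothelial gene Cdh5 was lowest in controls 1 and 2 (24.3 and 26.6 FPKM), as Ednrb was. Which cells the Ednrb RNA came from was not tested. Mesothelium of neighbouring organs shares epicardial markers, so markers of those organs were read too. Nkx2-1, which defines lung and thyroid, was listed at 0 in all 6 libraries, and Sftpc in 5. The 8 liver and lung genes summed to 2.76 to 5.59 FPKM in controls and 4.99 to 6.49 in knockouts, most of it from Apoa2 at 1.82 to 4.99 FPKM. Of the 9 genes of other coelomic linings and body wall mesenchyme, Gata6 and Osr1, which heart tissue also expresses, were high enough to be tested and 0 were called; the gonadal and adrenal factor Nr5a1 did not exceed 0.0265 FPKM.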

How the data were processed

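The authors deposited 1 table of FPKM values per Ensembl gene ID, 6 libraries wide, without read counts. CASAVA and fastp, HISAT2 (version 2.0.5) with featureCounts (version 1.5.0-p3), and the mm10 build appear in the submitters' processing notes; the annotation release is not given in the sources used here. Names, exon lengths and coordinates came from GENCODE M21 (GRCm38, which mm10 denotes), where 54409 of 54532 IDs matched. Of IDs that shared a symbol, that with the highest mean was used.

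Dividing FPKM times exon length by 1 constant per library gave whole reads (within 0.02) for 98.1% to 98.5% of genes under 30 reads. A count of 3 reads in 1 kb is worth 0.155 to 0.169 FPKM, a floor for counting error only. Genes averaging 0.5 FPKM or more were tested on log2(FPKM + 1) by limma (version 3.58.1, R 4.3.3) with trend, two-sided, on genotype alone, with Benjamini-Hochberg adjustment over all 14149. Fold changes on this scale understate those of low genes. The script was tested on simulated data.

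Named genes are the 10 markers, Kdm1a, the called members of each list (or the 2 with the smallest p), and the 5 genes nearest in profile; other genes were named after their values were seen, as relatives, partners or references, and some genes that the rule takes are not reported here. The members and lists were chosen with earlier results of these data known. Lists are described by counts and medians, without a set test. Alternatives were other pseudocounts, filters and scalings, voom on recovered reads, library weights, a replicate block, a sex score (Xist minus mean Y-linked log2 level) and leaving out each library. Tables and plots used Python 3.11.15 with pandas 2.3.3 and matplotlib 3.10.9.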

Additional observations from a re-analysis of the deposited data

How the results depend on the processing

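The epicardial markers gave 0 calls, higher or lower, under all 17 alternatives, with adjusted p between 0.283 (Lrrn4 without control 3) and 1. Their fitted log2 changes lay between -0.31 (Msln with the sex score as covariate) and 0.23 (Lrrn4 without control 3), and the interval bounds between -0.77 and 0.56. Changes this near 0 turned sign in 14 fits that left out a library and in 7 others: Msln (0.00068) and Sema3d (0.042) after rescaling to TPM, Sema3d (0.027) without haemoglobin and mitochondrial genes, Aldh1a2 (-0.013), Sema3d (0.013) and Tcf21 (-0.022) with library weights, and Bnc1 (-6.1e-08) with the sex score. Ggcx turned to 0.056 after rescaling to TPM and 0.041 without haemoglobin and mitochondrial genes, Osr1 to 0.0049 with the sex score, and Rmi1 to -0.042 by quantiles and -0.0049 with the sex score.

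Leaving out 1 library gave these ranges of the log2 change: Apoa2 -0.037 to 0.39, Tbx18 -0.046 to 0.065, Aldh1a2 -0.080 to 0.091, Bnc1 -0.021 to 0.067, E2f5 -0.015 to 0.16, Ripk1 -0.013 to 0.14, Rmi1 -0.10 to 0.052, Smim20 -0.063 to 0.10, Upk1b -0.021 to 0.20, Upk3b -0.069 to 0.12, Wt1 -0.013 to 0.13, Ggcx -0.11 to 0.048, Msln -0.27 to 0.073, Lrrn4 0.0042 to 0.23, Sema3d -0.17 to 0.10, Tcf21 -0.086 to 0.13. With 1 library left out, the median of the 10 lay between -0.02 and 0.09. Over all genes these fits called 111 to 273 higher and 23 to 108 lower, and in the lists of related genes and other cell types 1 to 5 higher and 0 to 2 lower.

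Over all genes the calls were 110 higher and 12 lower without the filter on low values, 132 higher at a mean of at least 5 FPKM, 40 lower after rescaling to TPM, 409 and 102 with voom on recovered reads, 112 lower with library weights, and 93 and 23 with the sex score. In the lists the counts became 0 and 0 without the filter, 0 and 1 with the sex score, and 4 higher after rescaling to TPM, without haemoglobin and mitochondrial genes, or with voom. Genes of these lists that gained a call were Tcf15 (lower, at a mean of at least 5 FPKM and with library weights), C1qa (higher, after rescaling to TPM or without haemoglobin and mitochondrial genes), Slc39a8 (higher, in both of these and with voom), Npr3 (higher, with voom or library weights) and Rgs5 (lower, with voom or the replicate block). The cause was not tested.

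Deviations of same-numbered libraries from their group means had a correlation across genes of -0.0021, 0.14 and 0.164 for replicates 1, 2 and 3. Control 1 correlated best with knockout 2, while controls 2 and 3 correlated best with the knockout of their own number. Whether same-numbered libraries share a litter or batch was not tested. With a replicate block 220 genes were higher and 64 lower, and 0 of the 10 markers were called. The block lowered the SE of every marker but Tbx18, whose SE went from 0.074 to 0.076. It took the SE of Msln from 0.20 to 0.09 and that of Aldh1a2 from 0.111 to 0.064, while that of Bnc1 hardly moved (0.0736 to 0.0733).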
